A study of Mus musculus with 27 samples.

Results

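The genes described here are 9 genes of the early gut endoderm and the notochord, taken by their symbols from the 24065 genes of a whole-embryo RNA-Seq count table. They are the forkhead factors Foxa1 and Foxa2, the endoderm factors Sox17, Hhex and Nkx2-1, the notochord genes Noto and Chrd, and the epithelial adhesion genes Epcam and Cdh1. All 9 had enough counts to be tested. Expression was measured in 3 WT and 3 Dnmt3b-/- mouse embryos at E8.5, with 1 embryo per library. The embryos were C57BL/6J littermates from matings of heterozygous animals, and the mutant allele was a germline deletion of the catalytic exons of Dnmt3b, made by crossing a floxed (2lox) allele to ACTB-Cre, so that every tissue of the mutant embryo carried it. Dnmt3b encodes a de novo DNA methyltransferase. The question was which of these genes differed in RNA level between the genotypes, and whether their spread between embryos resembled that of genes of the yolk sac endoderm, the other endodermal tissue attached to an embryo of this age.

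The definitive endoderm leaves the primitive streak at gastrulation and forms the gut tube. Foxa2 and Sox17 are required for its formation, and Hhex and Nkx2-1 then mark parts of the foregut. The notochord arises from the node, expresses Foxa2 and Noto, and secretes Shh and the BMP antagonist Chordin, which pattern the neural tube. The visceral endoderm, by contrast, becomes the absorptive endoderm of the yolk sac and expresses genes of lipid and protein transport such as Afp, Ttr and Apoa1. Several of the genes are not restricted to the gut: Sox17 and Hhex are also expressed in vessels, Nkx2-1 also in the ventral forebrain, and Epcam and Cdh1 in other epithelia, among them the surface ectoderm and the yolk sac endoderm.

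The library totals lay between 41489332 and 58470286 counts. Of the libraries, 2 stood apart. WT embryo 2 had the highest value among the WT embryos for 18 of 18 tested yolk sac endoderm genes. It also had the lowest summed level of erythroid genes among the WT embryos. Many of the values that it moves, but not all, are given without it as well. Dnmt3b-/- embryo 3 was the library least like the others, with Pearson correlations of 0.937 to 0.949 with the WT embryos and 0.967 and 0.969 with the other Dnmt3b-/- embryos in log2(normalized count + 1) across the tested genes, which are not independent replicates. Of the markers of other tissues in the whole embryos, 1 of 6 cardiac genes rose (Tnnt2, log2 fold change 0.62) and 1 fell (Nkx2-5, -0.79), with Myl7 not passing at -0.72. After the GC and length correction Nkx2-5 was at -0.06 and did not pass. Of 5 neural genes 2 rose (Pax6 and Sox1) and 2 fell (Sox2 and Sox3). Sox2 passed in 15 of 15 alternative settings, Pax6 in 11, Sox1 in 10 and Sox3 in 8, with Sox3 at -0.01 after the GC and length correction. Over all tested genes 17.6% rose and 18.1% fell at this threshold, an adjusted p below 0.05. None of 7 tested erythroid genes passed, with Hbb-bh1 and Hbb-y the most abundant. Without WT embryo 2, Hbb-bh1 fell (log2 fold change -1.23, edgeR adjusted p = 0.0307). Of 7 genes of trophoblast and decidua, Hand1 and Elf5 were tested and did not pass. Hand1 rose without WT embryo 2 (log2 fold change 0.65, edgeR adjusted p = 0.0373). Which tissue the Hand1 counts came from was not tested. The placental genes Prl3d1, Prl2c2, Prl8a2 and Tpbpa had 0 counts in all 6 embryos. Dnmt3b itself had 9197, 12195 and 7120 counts in WT and 4068, 3904 and 4196 counts in Dnmt3b-/- embryos. On the normalized scale it fell by 1.04 (log2, SE 0.27, edgeR quasi-likelihood test with Benjamini-Hochberg adjustment, adjusted p = 0.0169). The adjusted p was 0.0608, 0.0613 and 0.0555 without Dnmt3b-/- embryo 1, 2 or 3. Without WT embryo 2 the log2 fold change was -0.61, which passed the adjusted p (0.0026) but not a 2-fold change. This count covers all exons, including those outside the deletion. Normalized counts below are counts divided by the effective library size and multiplied by the mean library total. They are in the order of embryos 1, 2 and 3 of each genotype, and 3 counts correspond to between 2.37 and 3.49 normalized counts. In RNA from whole embryos, fewer cells of a type and less RNA per cell cannot be told apart.

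The promoters are shown for Nkx2-1 and Chrd, the genes that passed the test, and for Foxa1, the other gene whose groups did not overlap. Each is a RefSeq window of GRCm38.p6 from 250 bases before to 50 bases after an annotated start, 300 bases in all, written 5′ to 3′ on the strand of the gene. The Foxa1 window, like that of Chrd, surrounds a start inside the span of the gene, which for Foxa1 is chr12:57540628-57548029. Each CG dinucleotide, the site that DNA methyltransferases modify, is in capitals.
Nkx2-1, chr12:56536859-56537158, minus strand: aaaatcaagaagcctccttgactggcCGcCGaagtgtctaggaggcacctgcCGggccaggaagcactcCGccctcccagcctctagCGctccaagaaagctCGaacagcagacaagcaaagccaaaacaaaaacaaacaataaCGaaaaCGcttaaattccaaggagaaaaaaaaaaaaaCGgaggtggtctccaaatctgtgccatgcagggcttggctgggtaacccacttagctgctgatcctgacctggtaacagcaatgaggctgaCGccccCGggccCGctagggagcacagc
Chrd, chr16:20732877-20733176, plus strand: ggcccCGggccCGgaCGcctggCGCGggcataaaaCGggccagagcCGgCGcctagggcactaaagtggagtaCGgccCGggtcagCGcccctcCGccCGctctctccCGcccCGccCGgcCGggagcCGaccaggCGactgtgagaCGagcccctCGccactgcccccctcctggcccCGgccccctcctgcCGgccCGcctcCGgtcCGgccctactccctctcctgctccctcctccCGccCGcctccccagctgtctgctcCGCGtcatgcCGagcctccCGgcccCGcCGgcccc
Foxa1, chr12:57546062-57546361, minus strand: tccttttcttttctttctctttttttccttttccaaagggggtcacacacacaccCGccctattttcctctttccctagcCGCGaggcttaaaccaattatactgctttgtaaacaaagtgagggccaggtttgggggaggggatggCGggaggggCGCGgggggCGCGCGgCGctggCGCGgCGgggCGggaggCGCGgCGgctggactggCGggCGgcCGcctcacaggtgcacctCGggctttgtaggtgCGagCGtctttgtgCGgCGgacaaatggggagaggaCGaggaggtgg
The Nkx2-1 window held 12 CG dinucleotides, a number that 39.6% of the 32851 mouse promoter windows of this length reached or exceeded. The Chrd window held 34, reached by 7.73% of windows, and the Foxa1 window 26, reached by 16.9%, against a median of 7 over all windows. The gene that rose and the gene that fell thus had promoters of different CG content in these letters. Of the other genes with a window, Hhex had 37 CG dinucleotides, Epcam 11 and Noto 6, and the 3 windows of Foxa2 had 13, 23 and 12. The forkhead core motif TGTTTAC, searched on both strands, occurred once in the Foxa1 window and in no window of the other members, and 3.65% of all windows held it. Methylation of these windows was not analysed here. In total 7 of the 9 genes matched a window. Sox17 and Cdh1 did not.

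Per kilobase of exon, the 9 genes covered a wide range of levels. In WT embryos Epcam was highest at 28.3 ± 3.7 FPKM (SD, n = 3; fragments per kilobase of exon scaled by library size), followed by Cdh1 at 13.4 ± 5.8 and Foxa2 at 5.32 ± 1.60 FPKM. Hhex followed at 3.31 ± 0.31 FPKM and Sox17 at 2.56 ± 1.23 FPKM, and these neighbours in the order overlapped between WT embryos. Foxa1 at 1.44 ± 0.21 FPKM and Noto at 1.36 ± 0.22 FPKM also overlapped. Chrd and Nkx2-1 were lowest, at 0.475 ± 0.200 and 0.219 ± 0.051 FPKM. In the Dnmt3b-/- embryos the order of this last pair was inverted, with Nkx2-1 at 0.688 ± 0.236 FPKM and Chrd at 0.192 ± 0.061 FPKM.

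**Figure D1:**
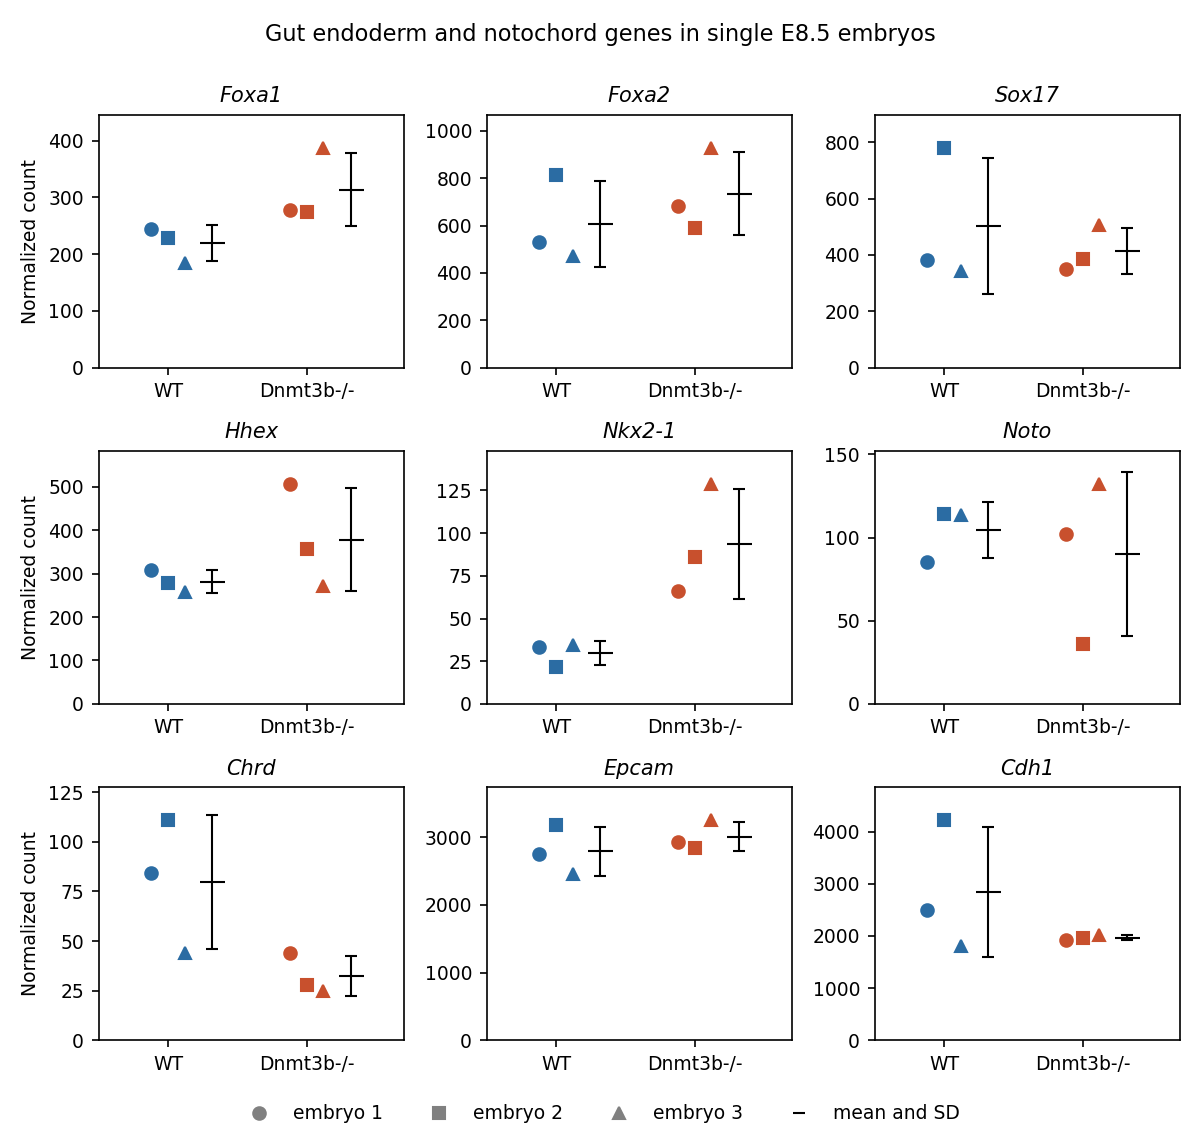
Normalized counts of the 9 genes in each embryo, with 1 panel per gene and a linear vertical axis from 0; blue points are WT embryos, orange points Dnmt3b-/- embryos, marker shape gives the embryo number, and the black bars are the mean and SD of 3 embryos. The genotypes separate for Nkx2-1, Foxa1 and, by a gap of less than 1 normalized count, Chrd, and overlap for the other 6 genes.

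Of the 9 genes, 1 rose and 1 fell in Dnmt3b-/- embryos with an adjusted p under 0.05 and a difference of more than 2-fold, and the other 7 did not pass. Over all 15114 tested genes, 2.12% were called higher and 3.78% lower by this rule. At the adjusted p alone the counts for the 9 genes were the same, against 17.6% of all tested genes higher and 18.1% lower. The median log2 fold change of the 9 genes was 0.11, with 5 positive and 4 negative values, against a median of -0.03 over all tested genes. The Dnmt3b-/- embryos lay above every WT embryo for 2 of the 9 genes and below every WT embryo for 1, and among all tested genes 25.3% and 26.5% showed these arrangements. At the adjusted p alone and by the separation of the groups, the 9 genes as a list were thus not above the background of the table. By the 2-fold rule 11.1% were higher and 11.1% lower, above the shares of all tested genes, but each share rests on 1 gene. Each gene is given by itself below. The calls over all genes leaned lower, with 320 higher and 571 lower (64.1% lower). With total counts in place of TMM scaling 74.3% of calls were lower, and after the correction for GC content and exon length 41.0% were, with 265 higher and 184 lower.

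Nkx2-1, the homeobox factor of the thyroid, lung and ventral forebrain, rose 3.12-fold. The gene lies on the minus strand at chr12:56531935-56536908 (GRCm38). It had 33.2, 21.7 and 34.4 normalized counts in WT and 65.9, 86.1 and 128.8 in Dnmt3b-/- embryos. The lowest Dnmt3b-/- embryo was above the highest WT embryo, and the largest value was that of Dnmt3b-/- embryo 3. The log2 fold change was 1.64 (SE 0.38, edgeR quasi-likelihood test with Benjamini-Hochberg adjustment, adjusted p = 0.0111). The unscaled counts were low, at 42, 19 and 39 against 66, 74 and 114. The call held when each embryo was left out in turn, with log2 fold changes from 1.35 to 1.85 and edgeR adjusted p from 0.00976 to 0.0391. The lowest of these log2 fold changes was that without Dnmt3b-/- embryo 3.

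Because Nkx2-1 is expressed in both foregut and forebrain, genes of each tissue are given beside it. Of the foregut genes with a related place of expression, Pax8, Pax9, Ripply3, Prox1 and Nkx2-3 did not pass, with log2 fold changes from -0.14 to 0.55. These 5 were chosen after their values were seen. Ripply3, the highest of them, had 255.9, 140.8 and 298.1 normalized counts in WT and 316.6, 364.1 and 340.0 in Dnmt3b-/- embryos (edgeR adjusted p = 0.143). Its Dnmt3b-/- embryos were thus all above the WT embryos, as for 25.3% of all tested genes. Of 9 tested genes of the ventral and anterior forebrain, Six3, a homeobox factor of the eye field and hypothalamus, rose (log2 fold change 1.05, SE 0.35, edgeR adjusted p = 0.0469), from 44.2, 50.4 and 40.6 normalized counts to 64.9, 82.6 and 133.3. The Dnmt3b-/- embryos were above the WT embryos, and embryo 3 was again the highest. Six3 lost the call when any embryo but Dnmt3b-/- embryo 1 was left out (log2 fold changes 0.72 to 1.14), and it passed in 6 of 15 alternative settings. The other 8 forebrain genes did not pass, among them Otx2 (log2 fold change 0.16) and Hesx1 (-0.82, and -0.17 without WT embryo 2), the most abundant of the list, and the median of the list was 0.20. Which tissue the Nkx2-1 counts came from was not tested.

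Shh, a ligand made by the notochord, the floor plate and parts of the gut tube and ventral forebrain, also rose. It had 490.4, 299.8 and 447.2 normalized counts in WT embryos and 668.1, 711.9 and 819.0 in Dnmt3b-/- embryos, with no overlap. The log2 fold change was 0.83 (SE 0.19, edgeR adjusted p = 0.0118), which is below a 2-fold change. It passed the adjusted p threshold in 15 of 15 alternative settings. Shh was the only one of 9 tested further genes of the notochord and node to pass in the main test, and the median log2 fold change of those 9 genes was 0.00064.

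The 3 tested genes whose profile over the 6 embryos was nearest to that of Nkx2-1 were Gm1976, Csf2ra and Dmrt3, with root mean square differences of 0.110, 0.118 and 0.130 in centred log2(normalized count + 1). For Chrd the nearest were Itpr3, Aldh1b1 and Pafah2, at 0.136, 0.147 and 0.154. Itpr3, an intracellular calcium channel, had 1038.4, 1689.1 and 663.3 normalized counts in WT embryos and 612.2, 454.8 and 412.3 in Dnmt3b-/- embryos.

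Chrd encodes Chordin, which binds BMP ligands outside the cell and keeps them from their receptors. The gene lies on the plus strand at chr16:20731425-20742384 (GRCm38), and the window printed above surrounds an annotated start inside this span. It had 84.5, 111.0 and 44.1 normalized counts in WT embryos and 43.9, 27.9 and 24.9 in Dnmt3b-/- embryos. The Dnmt3b-/- embryos were all below the WT embryos, but WT embryo 3 and Dnmt3b-/- embryo 1 were nearly equal, and the WT values were widely spread. Chrd fell by 1.30 on the log2 scale (SE 0.44, edgeR quasi-likelihood test with Benjamini-Hochberg adjustment, adjusted p = 0.0489). The counts before scaling were 107, 97 and 50 against 44, 24 and 22. The call stood close to the threshold. It was lost when WT embryo 1, WT embryo 2, Dnmt3b-/- embryo 2 or Dnmt3b-/- embryo 3 was left out, with log2 fold changes of -1.26, -0.99, -1.20 and -1.13 and edgeR adjusted p of 0.135, 0.145, 0.133 and 0.125. It was also lost after a correction for GC content and exon length (log2 fold change -0.78, edgeR adjusted p = 0.220). The exons of Chrd were 60.1% GC, the highest share among the 9 genes. Chrd shares 154 exonic bases with Thpo on the opposite strand, which had between 2 and 14 counts per embryo, and the strand setting of the counting is not given in the sources used here.

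Other genes of BMP signalling moved in both directions. Of 23 tested BMP antagonists, ligands, receptors and targets, 7 rose and 3 fell at an adjusted p below 0.05 (30.4% and 13.0%, against 17.6% and 18.1% of all tested genes), with a median log2 fold change of 0.13. Without WT embryo 1 these counts were 3 and 1, without WT embryo 3 they were 4 and 2, without Dnmt3b-/- embryo 2 they were 4 and 1, and without Dnmt3b-/- embryo 3 they were 3 and 2. With total counts they were 4 and 4, and after the GC and length correction 4 and 2. Among the antagonists, Chrdl1, a relative of Chordin, rose by a log2 fold change of 0.59 (SE 0.15, edgeR adjusted p = 0.0182), and Grem1 by 0.61 (SE 0.20, edgeR adjusted p = 0.0445). Grem1 lost the call in 10 of 15 alternative settings and Chrdl1 in 5, both of them without WT embryo 1, WT embryo 3, Dnmt3b-/- embryo 2 or Dnmt3b-/- embryo 3. Nog, the antagonist made with Chordin in the notochord, had a log2 fold change of -0.01 (SE 0.18). It was chosen after its value was seen. The proteinase gene Bmp1, whose product cleaves Chordin, fell by 0.58 on the log2 scale (SE 0.15, edgeR adjusted p = 0.0197), from 1529.6, 1042.5 and 1361.8 normalized counts to 935.8, 910.8 and 782.8. Bmp1 lost the call without WT embryo 1, WT embryo 3, Dnmt3b-/- embryo 2 or Dnmt3b-/- embryo 3, with log2 fold changes of -0.46, -0.56, -0.61 and -0.49, and after the GC and length correction, where it was -0.08.

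Among the receptors and intracellular parts, Bmpr2 rose by a log2 fold change of 0.52 (SE 0.08, edgeR adjusted p = 0.00213) and lost the call only after the GC and length correction (log2 fold change 0.03). Smad7, an inhibitor of the pathway, fell by 0.50 on the log2 scale (SE 0.13, edgeR adjusted p = 0.0193), but not without WT embryo 1 or Dnmt3b-/- embryo 2 (-0.45 in both), after the GC and length correction (-0.07) or with the yolk sac endoderm level as a covariate. Id3, a transcriptional target of BMP signals, was the only one of these genes past a 2-fold change. It had 3719, 3195 and 4068 normalized counts in WT embryos and 1735, 1675 and 1497 in Dnmt3b-/- embryos, so that every Dnmt3b-/- embryo was below every WT embryo. Id3 fell by 1.16 on the log2 scale (SE 0.11, edgeR adjusted p = 0.000506). It passed the adjusted p threshold in 15 of 15 alternative settings, with log2 fold changes from -1.25 to -0.86. After the GC and length correction no gene of this list was called past a 2-fold change. Id2, the most abundant related target, did not pass (log2 fold change -0.21, edgeR adjusted p = 0.0826).

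Noto, the homeobox factor of the node and notochord, had 85.3, 114.4 and 113.8 normalized counts in WT embryos and 101.9, 36.1 and 132.2 in Dnmt3b-/- embryos. The genotypes overlapped, and Dnmt3b-/- embryo 2 alone lay far below the others. The log2 fold change was -0.21 (SE 0.44, edgeR adjusted p = 0.737), and 0.16 without that embryo. T (Brachyury), the T-box factor of streak and notochord, had a log2 fold change of 0.47 (SE 0.22, edgeR adjusted p = 0.122). Without WT embryo 2, T was at 0.73 and passed (edgeR adjusted p = 0.0114), and it passed in 2 of 15 alternative settings. Rfx3, a factor of cilia genes, had a log2 fold change of 0.04 (SE 0.08). A pair of node genes picked after their values were seen varied most within the mutant group. Foxj1, the factor of motile cilia, had 47.4, 48.1 and 39.7 normalized counts in WT embryos and 45.9, 3.5 and 0 in Dnmt3b-/- embryos. Nodal had 14.2, 80.1 and 12.3 against 15.0, 4.7 and 0. For both genes Dnmt3b-/- embryo 1 lay within the WT range and the other mutant embryos below it, and neither passed the test (edgeR adjusted p = 0.330 and 0.132), though Foxj1 did without Dnmt3b-/- embryo 1. Noto, at 132.2 in Dnmt3b-/- embryo 3, did not follow this order. A count of 0 in that embryo allows up to 3 counts.

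**Figure D2:**
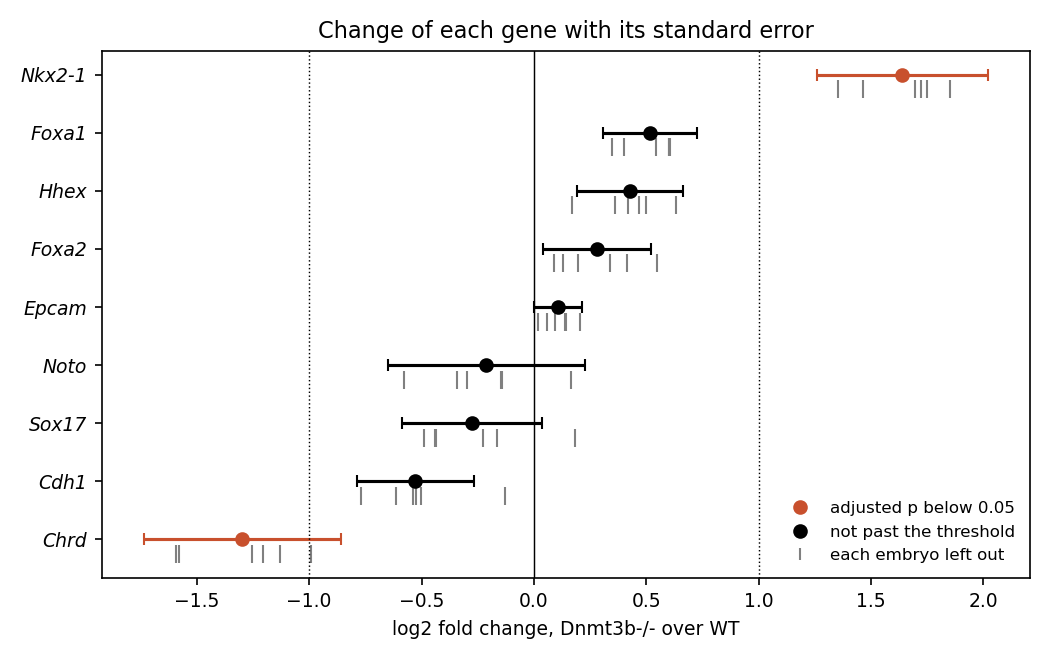
Log2 fold change of each of the 9 genes, Dnmt3b-/- over WT; points are the estimates with 1 standard error, orange where the adjusted p was below 0.05, and grey ticks are the estimates with each of the 6 embryos left out. Dotted lines mark a 2-fold change. Nkx2-1 keeps its place to the right of the line without any of the embryos, and Noto and Sox17 change sign without 1 embryo.

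The forkhead factors of the endoderm opened the next group. Foxa2, required for both endoderm and notochord, had 532.3, 812.5 and 471.0 normalized counts in WT embryos and 684.1, 590.9 and 928.5 in Dnmt3b-/- embryos, which overlapped. Its log2 fold change was 0.28 (SE 0.24, edgeR adjusted p = 0.393). It was 0.55 without WT embryo 2 (edgeR adjusted p = 0.0616) and 0.09 without Dnmt3b-/- embryo 3. Foxa1, its relative in the gut tube, had 244.8, 228.9 and 184.3 against 278.6, 274.5 and 387.5. For Foxa1 the genotypes did not overlap, yet the difference did not pass (log2 fold change 0.51, SE 0.21, edgeR adjusted p = 0.0889). After the correction for GC content and exon length it was 0.71 (edgeR adjusted p = 0.0455).

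Sox17, the SRY-related factor of definitive endoderm and arterial endothelium, had 383.8, 780.5 and 344.9 normalized counts in WT embryos and 351.5, 385.0 and 506.1 in Dnmt3b-/- embryos. Only WT embryo 2 lay above the range of the mutants. The log2 fold change was -0.28 (SE 0.31, edgeR adjusted p = 0.523), and 0.18 without WT embryo 2 (edgeR adjusted p = 0.512). Hhex, the homeobox factor of the anterior endoderm, liver bud and blood vessels, had 308.8, 279.2 and 256.7 against 506.3, 357.1 and 271.1. The lowest mutant embryo lay inside the WT range, and the log2 fold change of 0.43 did not pass (SE 0.24, edgeR adjusted p = 0.194).

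Vessel genes are given beside Sox17 and Hhex because endothelium also expresses both. Of 12 tested endothelial genes, 2 fell and none rose at an adjusted p below 0.05 (16.7% fell, against 18.1% of all tested genes). The vascular endothelial growth factor receptor Kdr fell by 0.46 on the log2 scale (SE 0.09, edgeR adjusted p = 0.00633), and the junction gene Esam fell by 0.97 (SE 0.23, edgeR adjusted p = 0.0122). Esam did not pass without WT embryo 1 (-0.89). Tek, the angiopoietin receptor, did not pass (log2 fold change -0.36), and the median of the list was -0.14. The number that fell was 1 without WT embryo 1, 3 without WT embryo 2 or Dnmt3b-/- embryo 3 and 4 without Dnmt3b-/- embryo 1, and it was 4 without a filter on low counts, with DESeq2, with limma or with the replicate block. The part of vessel RNA in the values of Sox17 and Hhex was not tested.

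Of 14 further gut endoderm genes 13 were tested, 1 fell and none rose (7.69% fell, against 18.1% of all tested genes), with a median log2 fold change of -0.14. The one that fell was Pyy, which encodes a gut hormone. It had 103.4, 115.6 and 65.3 normalized counts in WT embryos and 37.9, 37.2 and 44.1 in Dnmt3b-/- embryos, with no overlap, and fell by 1.25 on the log2 scale (SE 0.33, edgeR adjusted p = 0.0191). It lost the call in 6 of 15 alternative settings, among them those without WT embryo 1, WT embryo 2 or Dnmt3b-/- embryo 2 (log2 fold changes -1.18, -1.09 and -1.21). Without WT embryo 3 the number that fell in this list was 3. Cdx2, the hindgut and tail homeobox factor, and Nepn, a foregut and midgut gene, were the most abundant of the list per kilobase, with log2 fold changes of 0.0021 (SE 0.25) and -0.22 (SE 0.13). Foxa3 and Ihh, picked after their values were seen because they were the other decreases of more than 2-fold, had log2 fold changes of -1.39 and -1.24 (edgeR adjusted p = 0.0775 and 0.0793). Both had their highest value in WT embryo 2, 209.4 and 313.6 normalized counts, against no more than 86.9 and 134.2 in any other embryo.

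Epcam and Cdh1 encode adhesion molecules of epithelial cells, Cdh1 being E-cadherin. Epcam was the most even of the 9 genes, with 2757.6, 3178.0 and 2456.4 normalized counts in WT embryos and 2926.1, 2849.9 and 3254.4 in Dnmt3b-/- embryos. Its log2 fold change of 0.11 did not pass (SE 0.11, edgeR adjusted p = 0.474), and 0.02 to 0.21 was the range with each embryo left out. Cdh1 had 2498.6, 4223.9 and 1808.1 against 1923.4, 1958.9 and 2026.5. The mutant embryos lay close together inside the WT range, and the log2 fold change was -0.53 (SE 0.26, edgeR adjusted p = 0.149). Without WT embryo 2 it was -0.13, and without WT embryo 3 it was -0.77 and passed (edgeR adjusted p = 0.0222), so that the WT spread set the size of this difference.

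Other epithelial genes were more often lower. Of 19 tested genes of junctions, keratins and their regulators, 8 fell and 1 rose at an adjusted p below 0.05 (42.1% and 5.26%, against 18.1% and 17.6% of all tested genes), with a median log2 fold change of -0.41 and 17 negative values. The simple-epithelium keratin Krt18 fell by 1.01 on the log2 scale (SE 0.20, edgeR adjusted p = 0.0062), from 8458, 13947 and 9710 normalized counts to 6536, 5004 and 4352, and its partner Krt8 fell by 0.98 (SE 0.22, edgeR adjusted p = 0.00969). The tight junction gene Cldn7 fell by 0.88 (SE 0.29, edgeR adjusted p = 0.0449), but did not pass without WT embryo 2 (-0.55, edgeR adjusted p = 0.107). Lower too were the desmosomal plakoglobin gene Jup, which fell by 0.73 and did not pass without WT embryo 2 (edgeR adjusted p = 0.0693), the membrane protease gene St14, which fell by 0.64, and its inhibitor gene Spint2, which fell by 0.64. Ctnnb1, which encodes beta-catenin and was among the most abundant of the list, did not pass (log2 fold change -0.17, edgeR adjusted p = 0.0571). Krt18 passed in all 15 alternative settings, Krt8 in 14 and St14 in 13, and Cldn7, Jup and Spint2 in 9 each. Without WT embryo 2 the log2 fold changes of Krt18, Krt8, St14 and Spint2 were -0.78, -0.75, -0.48 and -0.42, and all of them passed. The number that fell was 6 without WT embryo 2, 3 without WT embryo 1 or without Dnmt3b-/- embryo 3, 5 without Dnmt3b-/- embryo 1 and 1 without Dnmt3b-/- embryo 2, and the list median then ranged from -0.34 to -0.46. Yolk sac endoderm is an epithelium too, and with its level as a covariate 5 fell and 1 rose.

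Genes of epithelial to mesenchymal transition, several of which encode repressors of Cdh1, are given beside these. Of 6 tested, 3 rose (Zeb2, Snai2 and Zeb1) and none fell, against 17.6% and 18.1% of all tested genes. Zeb2 had 4799, 5034 and 4915 normalized counts in WT embryos and 7821, 8119 and 10534 in Dnmt3b-/- embryos, with no overlap, and rose by a log2 fold change of 0.84 (SE 0.11, edgeR adjusted p = 0.00135). Zeb1 rose by 0.74 (SE 0.13, edgeR adjusted p = 0.00353) and Snai2 by 0.77 (SE 0.18, edgeR adjusted p = 0.0107). Zeb1 and Zeb2 passed in 15 of 15 alternative settings and Snai2 in 14. Twist1 did not pass (log2 fold change 0.37, edgeR adjusted p = 0.0662), nor did Snai1 (-0.04) and Twist2 (-0.40), which are named to complete the list. Neural crest, mesoderm and neural tissue also express these genes, and the part of each tissue was not tested. Of 7 surface ectoderm genes, which mark the other large epithelium, Wnt6 fell by 0.98 on the log2 scale (SE 0.14, edgeR adjusted p = 0.00184), the others did not pass, among them the abundant Grhl3 (log2 fold change -0.13), and the median was 0.12. Wnt6 lost the call only after the GC and length correction. Krt5 also fell without WT embryo 2 (log2 fold change -1.40, edgeR adjusted p = 0.0380). Dlx5 rose without Dnmt3b-/- embryo 1 (log2 fold change 1.35, edgeR adjusted p = 0.0143). Both were picked after their values were seen, and neither passed with any other embryo left out.

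**Figure D3:**
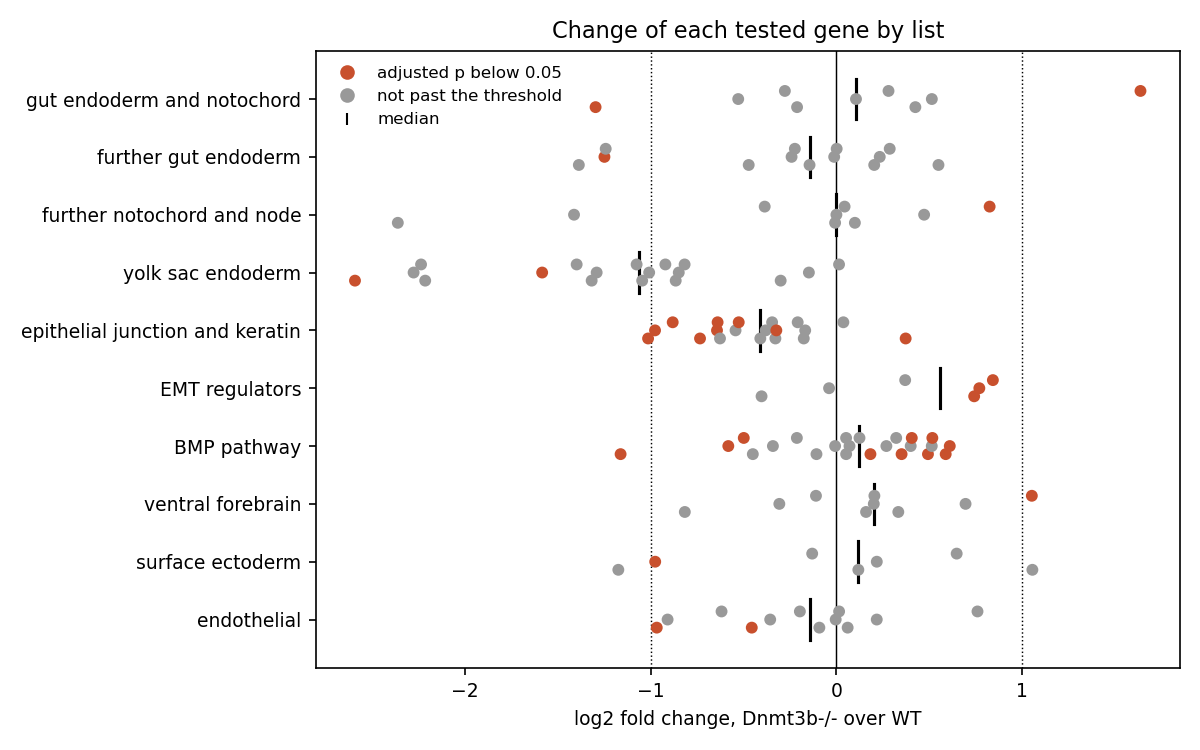
Log2 fold change, Dnmt3b-/- over WT, of each tested gene in 10 lists; each point is a gene, orange where the adjusted p was below 0.05, points are offset vertically to separate them, black lines are list medians and dotted lines mark a 2-fold change. The yolk sac endoderm list lies lowest with a median of -1.06, and the gut endoderm and notochord genes lie on both sides of 0.

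The yolk sac endoderm list was lower in Dnmt3b-/- embryos in its median, but mostly without passing the test. Of 19 listed genes 18 were tested, and 17 of the 18 log2 fold changes were negative, with a median of -1.06. Of these, 2 fell past a 2-fold change, Lrp2 and Amn, which encode parts of the endocytic receptor complex for vitamin and protein uptake. Lrp2 had 9813, 20935 and 6147 normalized counts in WT embryos and 4476, 4363 and 3451 in Dnmt3b-/- embryos, so that all mutants were below all WT embryos, and it fell by 1.59 on the log2 scale (SE 0.38, edgeR adjusted p = 0.0134). It was the only gene of the list whose groups did not overlap, and it lost the call without Dnmt3b-/- embryo 2 (-1.63) or Dnmt3b-/- embryo 3 (-1.47). Lrp2 is also expressed in neural epithelium. Amn fell by 2.59 (SE 0.85, edgeR adjusted p = 0.0429), with overlapping groups, and did not pass without WT embryo 1 (-2.87), WT embryo 2 (-1.31), Dnmt3b-/- embryo 2 (-2.40) or Dnmt3b-/- embryo 3 (-2.21). The most abundant genes, Ttr and Apoa1, which encode transport proteins for thyroid hormone and lipid, had log2 fold changes of -1.32 (SE 0.62, edgeR adjusted p = 0.136) and -0.86 (SE 0.68, edgeR adjusted p = 0.355). Without WT embryo 2 these were -0.39 and 0.33, so that the direction for Apoa1 reversed.

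These genes varied far more between embryos of 1 genotype than the gut endoderm and notochord genes did. The summed level of the yolk sac endoderm genes was 514.9, 1504 and 254.0 FPKM in WT embryos and 549.4, 347.9 and 188.0 FPKM in Dnmt3b-/- embryos. This was an 8.0-fold range over all 6 embryos of both genotypes. The sum of the 9 gut endoderm and notochord genes was 53.3, 70.2 and 45.4 FPKM in WT and 56.3, 52.4 and 61.7 FPKM in Dnmt3b-/- embryos. This was a 1.54-fold range over all 6 embryos, most of it from Epcam and Cdh1. Gene by gene, the median ratio of the highest to the lowest WT embryo was 6.68 for the yolk sac genes, 1.58 for the 9 genes and 1.22 for all tested genes. Among Dnmt3b-/- embryos these medians were 3.61, 1.57 and 1.26.

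**Figure D4:**
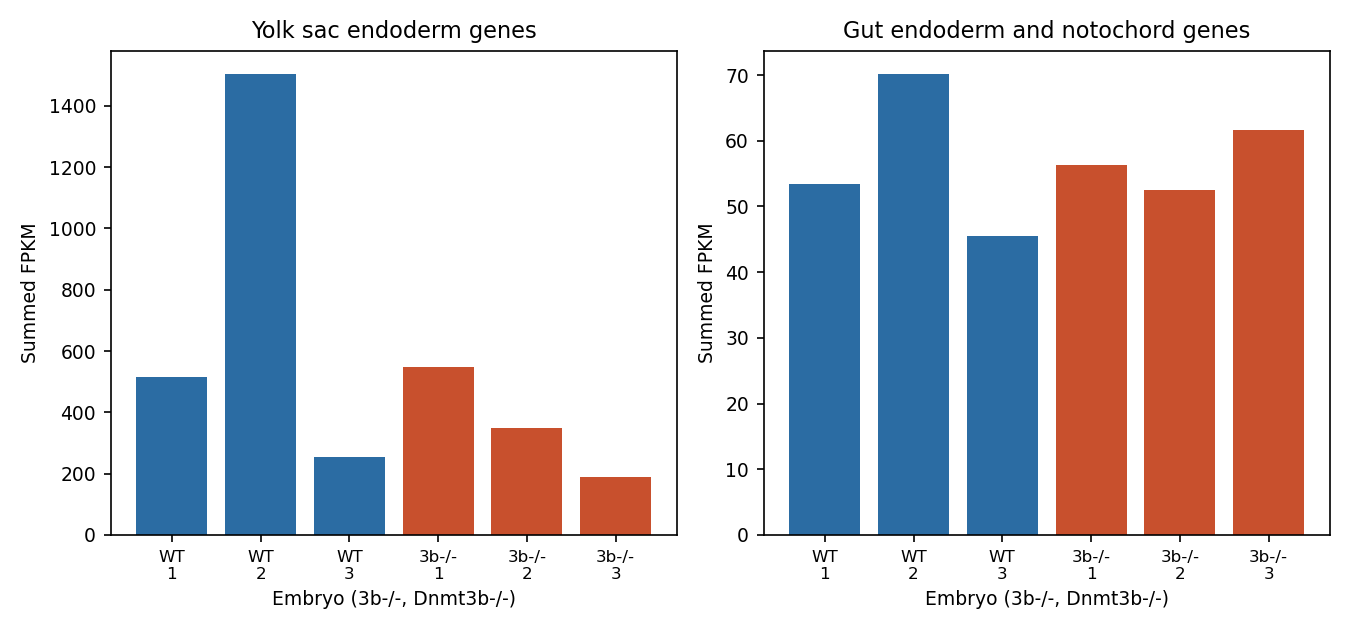
Summed FPKM per embryo of the yolk sac endoderm genes (left) and of the 9 gut endoderm and notochord genes (right), on linear axes from 0 with different scales; blue bars are WT and orange bars Dnmt3b-/- embryos. WT embryo 2 stands out at 1504 FPKM on the left, and Dnmt3b-/- embryo 3 is lowest on the left at 188.0 but highest of the mutants on the right at 61.7.

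The mutant embryos ranked differently for the 2 groups of genes, while the summed levels of both groups put the WT embryos in the same order. WT embryo 2 was the highest WT embryo for 18 of 18 yolk sac genes and for 6 of the 9 genes, against 35.9% of all tested genes. Among the mutants, embryo 1 was highest for 17 of 18 yolk sac genes, while embryo 3 was highest for 7 of the 9 genes, against 36.9% and 38.2% of all tested genes. Without WT embryo 2, the median log2 fold change of the yolk sac genes was -0.13, no gene passed both thresholds, and at the adjusted p alone Cited1 and Dab2 rose (log2 fold change 0.43 and 0.66) and Lrp2 fell (log2 fold change -0.96, edgeR adjusted p = 0.0050). The median of the 9 genes without WT embryo 2 was 0.21. How much yolk sac was attached to each embryo is not given in the sources used here, and its part in these values was not tested.

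A further fit, chosen after the data were seen, took the yolk sac endoderm level as a covariate. The level was here the log2 of the summed counts of the yolk sac endoderm genes, scaled by effective library size but not by exon length. None of the 9 genes passed in this fit. Nkx2-1 had a log2 fold change of 1.25 (edgeR adjusted p = 0.0608), Chrd -0.72 (0.231), Cdh1 -0.05 (0.872) and Sox17 0.14 (0.794). In that fit 231 of all genes were called higher and 441 lower, against 320 and 571 without the covariate.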

How the data were processed

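RNA of 3 WT and 3 Dnmt3b-/- whole embryos was sequenced by the authors as ribosome-depleted, stranded libraries with paired reads of 75 bases. The deposited table holds raw counts per gene, made by the authors with TopHat2 2.0.12 on mm10 and HTSeq 0.6.0 per the labels' processing notes, and a normalized signal per gene from DESeq2 1.4.5, deposited beside them, which was only checked. The strand setting and annotation release are not given in the sources used here. The authors' fold changes and adjusted p-values in the table were not used, and the RRBS samples were not analysed here. Counts were scaled by TMM and compared with edgeR 4.0.16 (glmQLFit and glmQLFTest, R 4.3.3) over 15114 genes averaging 10 or more counts, with Benjamini-Hochberg adjustment over all of them. A call required an adjusted p under 0.05 together with a change of more than 2-fold, or only the adjusted p where stated. FPKM were computed from the counts, effective library sizes and RefSeq exon lengths of GRCm38.p6 (22608 genes matched by symbol and 1277 by an older symbol). Alternatives used DESeq2 1.42.0, limma 3.58.1, other scalings and filters, a replicate block, each embryo left out, and trends on GC content and length removed. The tests were run on simulated data first.

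Library totals were 41489332 to 58470286 counts. Limits from counts of 0 cover counting error only. The replicates are separate embryos. The 9 genes and all gene lists (further gut endoderm, notochord and node, BMP pathway, epithelial, epithelial to mesenchymal transition, ventral forebrain, endothelial, surface ectoderm, yolk sac endoderm, erythroid, cardiac, trophoblast and decidua, neural) were chosen with earlier results of these data known. Besides the 9 genes and Dnmt3b, the text names from each list up to 6 genes with the largest changes among those at an adjusted p below 0.05, the 2 with the highest mean FPKM, and, for Chrd and Nkx2-1, the 3 genes nearest in profile. Others are said to be chosen after their values were seen or support a count.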

Additional observations from a re-analysis of the deposited data

How the results depend on the processing

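Of the 9 gut endoderm and notochord genes 2 were called. The number was 1 with DESeq2 size factors, 1 with the replicate block, 1 after the GC and length correction, and 0 with limma on log2(CPM + 1), with the yolk sac endoderm level as a covariate (added after the data were seen) or at an adjusted p below 0.01. It was 1 to 2 with each embryo left out. Chrd lost its adjusted p in 8 of 15 alternatives (log2 fold change -1.59 to -0.64, adjusted p 0.0292 to 0.231), and Nkx2-1 only with the covariate. Under limma both passed the adjusted p but stayed below a 2-fold change (-0.64 and 0.84). The 1 added before the log shrinks differences at counts as low as theirs. These limma values, which include the -0.64 end of the Chrd range, are therefore not comparable in size with the edgeR log2 fold changes. Direction was reversed for Noto without Dnmt3b-/- embryo 2 (0.16, in a range of -0.58 to 0.16 with each embryo left out) and for Sox17 without WT embryo 2 (0.18, in a range of -0.49 to 0.18) and with the covariate (0.14). Of 135 alternative values of the 9 genes, 121 kept direction and side of the threshold.

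Of the yolk sac endoderm genes 2 were called. The number was 5 without a filter on low counts, 5 with the replicate block, 1 with limma, 1 after the GC and length correction, 0 at an adjusted p below 0.01, and 0 to 6 with each embryo left out (0 without WT embryo 2, Dnmt3b-/- embryo 2 or Dnmt3b-/- embryo 3, and 6 without WT embryo 3). Over the genes of the other lists together, 34 passed at the adjusted p alone, and 16 to 36 with each embryo left out, the lowest without WT embryo 1. The cause of these changes was not tested.

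Deviations of same-numbered embryos from their group means correlated at -0.05, -0.15 and -0.01. With 3 embryos per genotype this cannot show whether the replicate numbers pair the embryos. Under the replicate block Chrd did not pass (adjusted p 0.0725). At 19 to 114 counts per embryo, Chrd and Nkx2-1 had the lowest depth of the 9 genes beside Noto. The number of embryos and their spread limit what can be detected, and values that missed the threshold are not shown to be equal.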
